A study of Mus musculus with 4 samples.

Results

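PHF6 peaks were examined that were low, carried neither H3K27 acetylation nor H3K27 trimethylation, and lay far from any acetylated site in mouse pre-B leukemia cells. They were chosen from the PHF6 peak list as peaks on chromosomes 1 to 19 that had a summit height below 28, overlapped no H3K27ac peak and no H3K27me3 peak, and had their summit more than 50 kb from the nearest H3K27ac summit. The rule found 13100 of 77749 PHF6 peaks (16.8%), here called distal low peaks. Summit height is the whole-number pileup that the authors deposited for each summit. Height, overlap and distance to H3K27ac chose the peaks, so these values are given as a description.

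The series used chromatin immunoprecipitation and sequencing (ChIP-seq), which recovers and sequences the DNA fragments bound by an antibody, in a C57BL/6J pre-B cell leukemia culture that overexpressed BCR-ABL1 and was p19 null. All libraries came from this 1 kind of cell. One library was made with an antibody to PHF6, one to H3K27ac and one to H3K27me3, and another was input DNA without antibody. The peak lists of the 3 antibodies were analysed here and the input library was not. Each antibody had 1 library, so no value has a replicate check, no p-value is given, and the 95% intervals cover counting error only. Sequencing depth is unknown because the lists hold no read totals. The 3 lists held 77749 PHF6, 32388 H3K27ac and 5616 H3K27me3 peaks. The labelled cell type was not checked against marker genes, since gene positions in the build of the lists, mm9, were not used here.

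PHF6 is a nuclear protein that carries atypical PHD zinc fingers, is recurrently mutated in T-cell leukemia and is known to bind the NuRD remodelling complex. H3K27ac marks active promoters and enhancers, and H3K27me3 is deposited by Polycomb repressive complex 2. Chromosome bands that stain light with Giemsa are rich in genes and in G and C bases, and the darkest bands are poor in genes and replicate late.

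The median height of distal low peaks was 20 (quartiles 17 and 22, lowest 12), and the most frequent height was 19, with 1514 peaks. Low unmarked PHF6 peaks within 50 kb of an H3K27ac summit, here called flanking low peaks, numbered 36335 and also had a median height of 20 (quartiles 18 and 22). The score that the peak caller gave each peak had a median of 93.7 (quartiles 73.0 and 132) in distal low peaks and 97.9 (75.1 and 142) in flanking low peaks. A score of 60 was the smallest in the PHF6 list, and 7316 distal low peaks (55.8%) scored below 100. Among flanking low peaks 18831 (51.8%) did. Heights and scores of both sets overlapped over most of their range.

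At the height limit there was no gap in the values. Unmarked peaks beyond 50 kb with heights of 26 to 27 numbered 698 and had a median width of 1036 bp and a median score of 163, and those with heights of 28 to 29 numbered 427, with 1087 bp and 187. The same held at the distance limit. Low unmarked peaks at 50 to 55 kb numbered 859, with a median width of 901 bp and a median score of 91.9, and those at 45 to 50 kb numbered 1035, with 901 bp and 93.1.

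All PHF6 peaks in the territory more than 50 kb from H3K27ac were then accounted for. This territory holds every autosomal base farther than 50 kb from an H3K27ac summit and made up 1399 Mb, or 56.6% of the mm9 autosomes. It held 14027 of 76703 autosomal PHF6 peaks (18.3%, 95% interval 18.0 to 18.6). Of these 14027 peaks, 13100 were distal low peaks, 869 (6.20%, 5.80 to 6.61) were unmarked and at least 28 high, and 58 lay on H3K27me3. Tall peaks made up 6.22% (5.83 to 6.63) of unmarked PHF6 peaks in this territory and 6.89% (6.64 to 7.15) of those within 50 kb. Tall peaks were thus slightly less frequent among unmarked peaks beyond the limit than within it.

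Low unmarked PHF6 peaks became sparser with distance from acetylation. There were 9.36 distal low peaks per Mb beyond 50 kb and 33.9 flanking low peaks per Mb within 50 kb, a ratio of 0.277 (0.271 to 0.282). Unmarked peaks of height 28 or more stood at 0.621 and 2.51 per Mb, a ratio of 0.248 (0.229 to 0.268). The ratio of 0.277 pools neighbourhoods of unlike acetylation. Within groups of 1 Mb windows of like H3K27ac count, given below, the densities beyond and within 50 kb lay closer together. By distance, low unmarked peaks numbered 37.8 per Mb at 0 to 5 kb, where peaks that touch H3K27ac are removed by the rule, and 47.1 per Mb at 5 to 10 kb. The density was 35.9 per Mb at 10 to 20 kb, 24.8 at 20 to 50 kb and 16.0 at 50 to 100 kb. It was 11.0 per Mb at 100 to 200 kb, 6.35 at 200 to 500 kb, 4.22 at 500 to 1000 kb and 2.19 beyond 1000 kb. Territory includes the unassembled chromosome starts, where no peak can be called. Their inclusion lowers the densities at the largest distances by an amount that was not measured. The density fell from bin to bin from 5 to 10 kb out to 500 to 1000 kb, on both sides of the 50 kb limit. The lower value beyond 1000 kb cannot be told apart from the effect of the chromosome starts. The bins next to the limit are too wide to show whether there was a step at it.

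**Figure D1:**
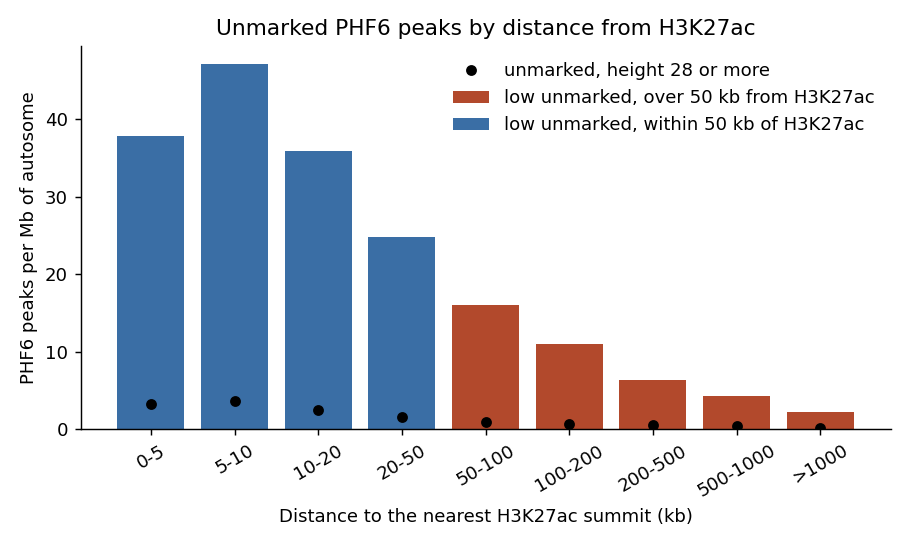
Bars give low unmarked PHF6 peaks per Mb of autosome in bins of distance to the nearest H3K27ac summit (kb), and points give unmarked peaks of height 28 or more. Low peaks stood at 16.0 per Mb at 50 to 100 kb and at 2.19 per Mb beyond 1000 kb. The farthest bin includes unassembled chromosome starts.

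The rule limits every low peak to a height below 28, so heights are given only as a description. The mean height of low unmarked peaks was 20.5 at 0 to 5 kb, 20.2 at 5 to 10 kb, 20.1 at 10 to 20 kb and 19.9 at 20 to 50 kb. The median height was 19 at 50 to 100 kb, 20 in each of the 3 bins between 100 and 1000 kb, and 21 beyond 1000 kb, and the mean heights of these 5 bins lay between 19.8 and 20.5. The share of tall peaks among unmarked PHF6 peaks was 7.84% at 0 to 5 kb, 7.18% at 5 to 10 kb, 6.44% at 10 to 20 kb, 6.13% at 20 to 50 kb and 5.69% at 50 to 100 kb. It was 5.77% at 100 to 200 kb, 7.55% at 200 to 500 kb, 7.50% at 500 to 1000 kb and 6.73% beyond 1000 kb. In all, 7563 distal low peaks (57.7%) lay over 100 kb, 960 (7.33%) over 500 kb and 208 (1.59%) over 1000 kb from H3K27ac.

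Distal low peaks were narrow. Their median width was 872 bp (quartiles 747 and 1065), against 968 bp (820 and 1241) in flanking low peaks, and 2.01% were wider than 2 kb, against 5.20% of flanking low peaks. Width increases with height, so widths were also compared at each height from 14 to 27. Distal low peaks had the smaller median width at all 14 heights, by 44 to 120.5 bp. At height 20, the 1437 distal low peaks had a median width of 880 bp and the 4011 flanking low peaks 962 bp. At height 27, 305 distal low peaks had 1045 bp and 1019 flanking low peaks 1138 bp. The quartile ranges of both sets overlapped at every height.

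**Figure D2:**
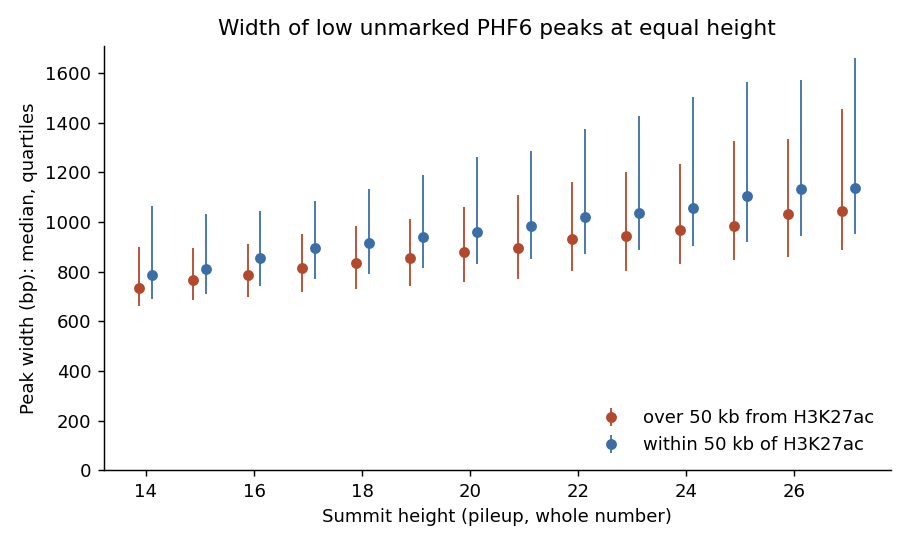
Points give the median width (bp) of low unmarked PHF6 peaks at each summit height from 14 to 27, with bars from the lower to the upper quartile. The median of peaks over 50 kb from H3K27ac lay below that of peaks within 50 kb at all 14 heights, with overlapping quartile ranges.

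The width difference moved with the crowding of PHF6 peaks. Among peaks with another PHF6 summit within 5 kb, 3565 distal low peaks had a median width of 927 bp and 24386 flanking low peaks had 1010 bp, at median heights of 19 and 20. Among peaks with no other PHF6 summit within 20 kb, 6133 distal low peaks had 839 bp and 2872 flanking low peaks had 849 bp. The median height was 20 in both of these isolated sets. The part of crowding in the width difference was not tested further.

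Distal low peaks lay farther from other PHF6 peaks than flanking low peaks did, in a territory that held fewer of them. It held 18.3% of autosomal PHF6 peaks on 56.6% of the autosomes, so wider spacing is at least in part given by this density. Whether they were more or less clustered than their density gives was not tested. Their nearest other PHF6 summit lay a median of 17.3 kb away (quartiles 4.46 and 54.5), against 3.06 kb (1.80 and 6.84) for flanking low peaks. Another PHF6 peak was within 10 kb for 5176 distal low peaks (39.5%, 38.7 to 40.4), against 82.6% (82.2 to 83.0) of flanking low peaks. No other PHF6 peak was within 100 kb for 1512 distal low peaks (11.5%), against 104 flanking low peaks (0.286%). Any PHF6 peak counted as a neighbour, including those on H3K27ac. The nearest PHF6 peak of a distal low peak was another distal low peak in 10397 cases (79.4%), a flanking low peak in 1181 (9.02%), a marked peak in 781 (5.96%) and a tall unmarked peak in 741 (5.66%). Distal low peaks made up 93.4% of PHF6 peaks beyond 50 kb, so a neighbour of the same set is largely given by the rule.

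**Figure D3:**
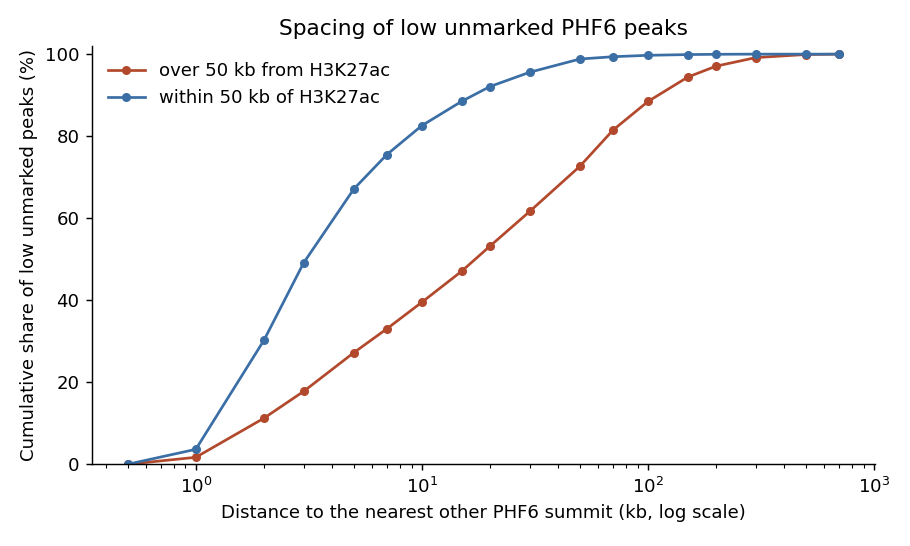
Lines give the cumulative share (%) of low unmarked PHF6 peaks whose nearest other PHF6 summit lies within the distance on the x axis (kb, log scale). At 10 kb the share was 39.5% for peaks over 50 kb from H3K27ac and 82.6% for peaks within 50 kb.

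Crowded and isolated distal low peaks were also set side by side, as a description. Those with a PHF6 neighbour within 2 kb numbered 1470 and had a mean height of 19.6 and a median width of 905 bp. Those with none within 100 kb had a mean height of 20.2 and a median width of 835 bp. The crowded ones lay a median of 88.9 kb from H3K27ac and the isolated ones 249 kb.

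Chains of distal low peaks were formed by joining neighbours whose summits were at most 10 kb apart. Of all distal low peaks, 8229 (62.8%) stood alone, 4871 (37.2%) were in 1594 chains of 2 or more, and 612 (4.67%) were in 42 chains of 10 or more. Of these 42 chains, 33 began in light bands and 16 were on chromosome 4. Light bands held 46.7% of all distal low peaks, and chromosome 4 held 1179 of the 13100. The longest chain had 36 peaks over 168 kb on chromosome 4, with summits from 139577243 to 139745214 (band qD3). Its heights ran from 14 to 27, and its median spacing was 4627 bp. Another chain in this band had 32 peaks over 97.8 kb, from 136670037 to 136767815, with a median height of 18. Chains of 24 peaks were found on chromosome 11 from 118652504 to 118761234 (qE2) and on chromosome 12 from 113502888 to 113583429 (qF1). The fifth had 22 peaks on chromosome 2 from 172639710 to 172704986 (qH3), with a median spacing of 2856 bp. The median height of these 5 chains lay between 18 and 21.5, which is close to the median of 20 of all distal low peaks.

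The territory was also read as 4841 separate intervals, each bounded by the 50 kb zones of neighbouring H3K27ac summits or by a chromosome end. Their median length was 113 kb (quartiles 37.7 and 323). Of these, 1696 (35.0%) held no distal low peak, 957 held 1 and 280 held 10 or more. Shorter intervals were the denser ones. Intervals of up to 50 kb held 25.2 distal low peaks per Mb, those of 200 to 500 kb held 12.4, and those over 2000 kb held 3.49. Bases of short intervals lie nearer to H3K27ac, so length and distance were not separated here. The class over 2000 kb includes unassembled chromosome starts, which lowers its density. The 10 intervals with the most distal low peaks held 504 of them (3.85%) on 0.453% of the territory. The 500 intervals with the most held 47.7% of the peaks on 33.2% of the territory.

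The 10 fullest intervals were all longer than the median interval, at 218 kb or more, and 8 of them had their midpoint in a light band. Light bands made up 38.0% of the territory and held 46.7% of all distal low peaks. The first, on chromosome 4 from 153595226 to 153959929 (qE2), held 77 distal low peaks in 365 kb, or 211 per Mb, with heights of 14 to 27. The 50 kb on either side, up to the bounding H3K27ac summits, held 180 flanking low peaks per Mb. The second, on chromosome 11 from 118481218 to 118784478 (qE2), held 57, or 188 per Mb, against 190 per Mb in its flanks. Another 3 were on chromosome 4. They lay from 151971086 to 152833168 (qE2) with 56 peaks, from 150576523 to 150946272 (qE2) with 44, and from 139852437 to 140070019 (qD3) with 43. Chromosome 2 had 53 peaks from 172427276 to 172715439 (qH3) and 36 from 179227596 to 179661697 (qH4). Chromosome 12 had 46 from 113466479 to 113699173 (qF1), and chromosome 5 had 37 from 113055726 to 113482840 (qF). In 3 of the 10 the density exceeded that of the flanks, and in the other 7 it did not. Together the 10 intervals held 12 tall unmarked PHF6 peaks and 1 H3K27me3 summit. They were chosen for holding many distal low peaks, which made up 93.4% of PHF6 peaks in the whole territory.

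The longest of the 10 was an interval of 2.83 Mb on chromosome 7 from 20674055 to 23508734 (qA3), which held 55 distal low peaks at 19.4 per Mb. Its flanks held 30 flanking low peaks per Mb, and its median peak width of 814 bp was the narrowest of the 10. The longest interval of all, chosen after its values were seen, was on chromosome 7 from 39106287 to 46655124 (qB3). It held 8 distal low peaks in 7.55 Mb, or 1.06 per Mb.

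**Figure D4:**
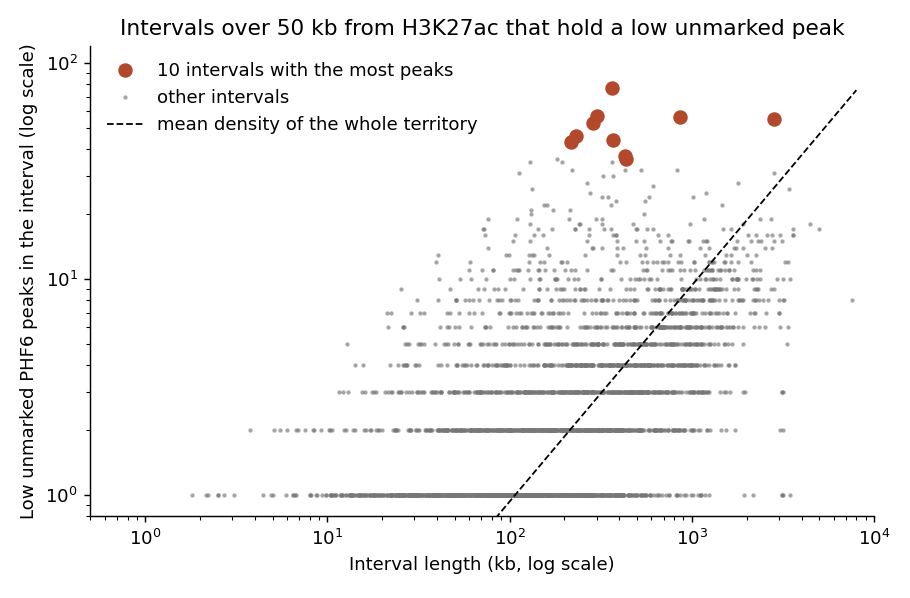
Each point is an interval more than 50 kb from H3K27ac that held at least 1 low unmarked PHF6 peak, with its length (kb) and its number of such peaks on log scales. The 10 fullest intervals (large points, 36 to 77 peaks) lie above the dashed line, the mean of 9.36 peaks per Mb of the whole territory.

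Among intervals with at least 10 distal low peaks, the densest was on chromosome 8 from 123405997 to 123446262 (qE1), with 13 peaks in 40.3 kb, or 323 per Mb. The next 3 were in band qD3 of chromosome 4. They started at 135322527, 136442058 and 136654393 and held 12, 31 and 35 peaks, at 303, 276 and 270 per Mb. The fifth, on chromosome 2 from 168465815 to 168541716 (qH3), held 19 peaks at 250.3 per Mb. Selecting intervals for a high value on short lengths favours extreme densities. At the other end, the longest interval with no PHF6 peak was the first 3.06 Mb of chromosome 13. The start of each mouse chromosome is unassembled in mm9. The longest inside a chromosome, added after its values were seen, was on chromosome 13 from 91997101 to 92851363 (qC3, 854 kb).

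The acetylation of the wider neighbourhood went with the density of distal low peaks. Autosomes were divided into windows of 1 Mb and grouped by their number of H3K27ac summits. In windows with 0 summits there were 3.69 distal low peaks per Mb of territory beyond 50 kb, and in windows with 1 to 4 there were 6.59. The density was 8.99 per Mb with 5 to 9 summits, 16.7 with 10 to 19, 31.1 with 20 to 39 and 49.4 with 40 to 167. Windows with 0 summits made up 19.9% of the territory and those with 40 to 167 made up 1.11%. Flanking low peaks, per Mb within 50 kb, were at 6.51 with 0 summits (7 peaks), 8.80 with 1 to 4 and 11.9 with 5 to 9. They were at 22.5 with 10 to 19, 44.8 with 20 to 39 and 81.5 with 40 to 167. The density beyond 50 kb was thus lower in each group, but by less than in the pooled ratio of 0.277. Beyond 50 kb, bases in acetylated windows are nearer to H3K27ac than bases in empty ones. With only the bases at 50 to 100 kb from H3K27ac, the density of distal low peaks was 3.78 per Mb in windows with 0 summits (11 peaks), 8.0 with 1 to 4 and 56.7 with 40 to 167. Distances within this bin were not matched between windows. Windows with 0 summits include the unassembled chromosome starts, which lowers their density over the whole territory. Windows are grouped by a second library of the same cells, and read coverage, base composition and copy number of the windows were not analysed here.

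**Figure D5:**
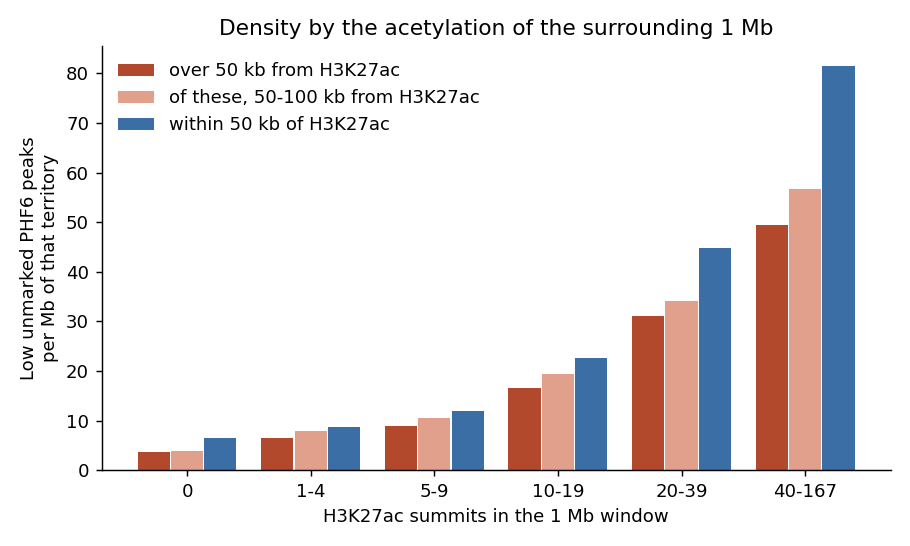
Bars give low unmarked PHF6 peaks per Mb of territory in 1 Mb windows grouped by their number of H3K27ac summits, for bases over 50 kb from H3K27ac, the part of these at 50 to 100 kb, and bases within 50 kb. Beyond 50 kb the density was 3.69 per Mb in windows with 0 summits and 49.4 per Mb in windows with 40 to 167. Windows with 0 summits include unassembled chromosome starts.

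Density also differed between chromosome bands, which the rule did not use. Bands and windows group the territory unlike each other, so the sizes of their contrasts are not compared. The darkest bands made up 36.5% of the territory and held 3453 distal low peaks (26.4%, 25.6 to 27.1). Light bands made up 38.0% of it and held 6115 (46.7%, 45.8 to 47.5). This came to 6.77 per Mb in the darkest and 11.5 per Mb in light bands, a ratio of 0.589 (0.564 to 0.614), and to 11.5 and 19.9 per Mb with only the bases at 50 to 100 kb from H3K27ac. The darkest bands include unassembled chromosome starts, which raises their share of the territory and lowers their density. Flanking low peaks were at 21.1 per Mb in the darkest and 41.3 per Mb in light bands. Peaks with a PHF6 neighbour within 10 kb made up 28.6% of distal low peaks in the darkest bands and 47.3% in light bands. Distal low peaks in light bands were thus denser and more crowded.

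Density also differed between chromosomes, and this was not set against their bands or acetylation. Distal low peaks were densest on chromosome 4 (1179 peaks, 13.5 per Mb of territory), chromosome 11 (12.9) and chromosome 5 (11.97), and sparsest on chromosome 3 (6.86), chromosome 16 (7.48) and chromosome 18 (7.62). On chromosome 4, the last 25 Mb held 519 of them at 78.2 per Mb, and the rest of the chromosome held 660 at 8.16 per Mb. This stretch was singled out after its values were seen, and its read coverage and copy number were not analysed here. The density beyond 50 kb was 0.190 times that within 50 kb on chromosome 8 and 0.455 times on chromosome 13, with the other autosomes between, so it was lower on each of the 19. Median heights were between 19 and 20 on every autosome.

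H3K27me3 lay farther from distal low peaks than from flanking low peaks. The nearest H3K27me3 summit was a median of 315 kb away (quartiles 136 and 684) for distal low peaks and 108 kb (41.5 and 248) for flanking low peaks. It was within 50 kb for 1011 distal low peaks (7.72%, 7.27 to 8.19), against 29.1% (28.7 to 29.6) of flanking low peaks, and over 1 Mb away for 1985 (15.2%). The territory beyond 50 kb from H3K27ac held 1102 of 5395 autosomal H3K27me3 peaks (20.4%) on 56.6% of the autosomes. The greater distance of distal low peaks to H3K27me3 is thus at least in part given by the rule. Within the territory they were not sparser near H3K27me3. They stood at 11.98 per Mb within 10 kb of it and 12.1 at 10 to 50 kb, against 9.36 over the whole territory. PHF6 was present at 57 of the 1102 H3K27me3 peaks (5.17%, 3.94 to 6.65), against 32.4% (31.0 to 33.9) of H3K27me3 peaks within 50 kb of H3K27ac. The territory held 18.3% of autosomal PHF6 peaks on 56.6% of the autosomes, so the lower share is at least in part given by this density. Whether the shares differed beyond what density gives was not tested. H3K27me3 peaks that lie on H3K27ac were not removed from those within 50 kb.

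The density of distal low peaks in this territory was also given by distance to H3K27me3, as a description. Their density was 11.98 per Mb within 10 kb of an H3K27me3 summit, 12.1 at 10 to 50 kb, 14.95 at 50 to 100 kb and 13.5 at 100 to 200 kb. It was 11.2 per Mb at 200 to 500 kb, 7.72 at 500 to 1000 kb and 5.29 beyond 1000 kb. The rule leaves out peaks that touch H3K27me3, and 58 PHF6 peaks of this territory did. This lowers the nearest value, so the bins cannot show whether PHF6 peaks were densest at H3K27me3. Unassembled chromosome starts add to the farthest bin, which lowers its value. The 227 distal low peaks within 10 kb of H3K27me3 had a median height of 19, and the 1985 beyond 1000 kb had 20.

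The 10 distal low peaks farthest from acetylation were on 5 chromosomes, and 8 of them were in the darkest bands. Of the darkest bands 66.0% lay beyond 50 kb from H3K27ac, against 52.2% of light bands. The bands of territory at these largest distances were not measured. The farthest was on chromosome 6 from 62659649 to 62660258 (qC1), 2172 kb from H3K27ac, with height 22, score 95.95 and width 610 bp. Its neighbours in the same band followed. The peak from 62944664 to 62945435 had height 18 and score 81.2, and the peak from 62964798 to 62967146 had height 25, score 451 and width 2349 bp. Next was chromosome 1 from 111626413 to 111627052 (qE2.1), at 1849 kb from H3K27ac, with height 22. Chromosome 3 had 3 of the 10 between 3249870 and 3320058 (qA1), near the start of its assembled sequence, with heights of 17, 26 and 23. The last 3 were on chromosome 4 at 80718351 to 80719119 (qC3, height 17), chromosome 14 at 108699835 to 108700943 (qE3, height 15) and chromosome 6 at 61990951 to 61992329 (qB3, height 23). Their scores ran from 81.2 to 451, with a median of 104, which lies within the range of the other distal low peaks.

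The 10 distal low peaks with the highest scores were all wider than 2 kb, at 2381 to 5422 bp, and their heights of 23 to 27 were near the limit of the rule. The first was on chromosome 7 from 151595190 to 151598324 (qF5), with score 868, height 27 and a distance of 60.6 kb to H3K27ac. The second was on chromosome 18 from 9211729 to 9215189 (qA1), with score 805 and height 27, 235 kb from H3K27ac. The widest was on chromosome 4 from 153654140 to 153659561 (qE2), inside the fullest interval, with score 775 and height 26. The fourth, on chromosome 12 from 5380295 to 5383173 (qA1.1), had score 772 and lay 15.7 kb from H3K27me3 and 458 kb from H3K27ac. The other 6 were on chromosomes 16, 1, 4, 11, 1 and 14, with scores of 642 to 722. Of all 10, 7 were in light bands, which held 46.7% of all distal low peaks. All 10 heights were above the upper quartile of 22. Score, height and width come from the same library and rise together, so choosing by score favours tall and broad peaks.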

How the data were processed

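Per the labels, nuclei of crosslinked cells were sonicated and libraries were read in single-read mode. The submitters' processing notes name Bowtie2, SAMtools and MACS 1.4.0 with mouse build mm9, without order or options. The deposited score per peak starts at 60, and the deposited signal per summit is a whole-number pileup height with a maximum of 400. The file names give a threshold of 1e-06 for all lists and mark the PHF6 and H3K27ac lists as called without local background (lambda), so these peaks were not set against local coverage. No label or header says whether the caller used the input as control. Scores and heights are the authors' values and describe peaks within 1 list.

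Peaks overlapped when they shared 1 bp. Territory was measured on whole mm9 chromosomes, unassembled starts included (GenomeInfoDb 1.38.1), and bands came from circlize 0.4.16, under R 4.3.3. Other steps ran in Python 3.11.15 (scipy 1.17.1, pandas 2.3.3, numpy 2.4.6), with figures drawn in matplotlib 3.10.9. Shares carry exact Clopper-Pearson intervals and ratios of densities exact conditional intervals, at 95%. Neighbouring peaks are not independent. The routines for distance, overlap and territory were tested on simulated data against direct enumeration in 20 runs. The members and the ways they are described were chosen with earlier results of these data known. Regions named are the 10 intervals with the most peaks, the 5 densest with at least 10, the 5 longest chains, the longest interval without PHF6, and the 10 peaks farthest from H3K27ac and with the highest score. Gene positions and genome sequence were of another build and were not used here.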

Additional observations from a re-analysis of the deposited data

How the results depend on the processing

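The 6 main results were recomputed under 11 alternatives, of which 2 were chosen after seeing the data. Of 61 values, 27 lay inside the 95% interval of the reported value or, for peak numbers, within 1.5 times it. The ratio of densities, beyond over within 50 kb, stayed below 1 in all runs, and the cause of the moves was not tested. A height limit of 22 gave a median width of 835 bp, 40.4% with another PHF6 peak within 10 kb, 7.24% with H3K27me3 within 50 kb and a density ratio of 0.292. A limit of 25 gave 859 bp and a ratio of 0.283. A distance limit of 25 kb gave 20619 peaks, 886 bp, 23.6% in the darkest bands, 48.7% with a PHF6 neighbour, 12.6% near H3K27me3 and a ratio of 0.314. A limit of 100 kb gave 7563 peaks, 858 bp, 29.7%, 30.01%, 5.88% and 0.243. PHF6 scores of at least 100 gave 5784 peaks, 1085 bp, 28.2% with a PHF6 neighbour and a ratio of 0.253, with fewer neighbours to find by construction. H3K27ac scores of at least 100 gave 888 bp, 25.2% in the darkest bands, 44.4% with a PHF6 neighbour, 8.90% near H3K27me3 and a ratio of 0.289. Counting a mark within 1 kb as marked gave a ratio of 0.305, and chromosome lengths from the first to the last peak gave 0.288. Without chromosome 4, 27.2% were in the darkest bands and 37.7% had a PHF6 neighbour. Without the 10 fullest intervals these were 27.4% and 37.6%, with a ratio of 0.267. Gene content and summit sequence were planned and not analysed here, for want of mm9 positions. No paired analysis was possible because there was 1 library per antibody and hence no replicate number. Depth is unknown, so peaks below the threshold in any library cannot be told from absent signal, and signal of the input library at distal low peaks was not tested.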

Other observations

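Chromosomes X and Y were outside the rule. On X, 504 of 1028 PHF6 peaks were low, unmarked and more than 50 kb from H3K27ac, with a median height of 19 and a median width of 897.5 bp. They stood at 4.03 per Mb of the territory beyond 50 kb, which made up 75.1% of the chromosome, and flanking low peaks stood at 3.39 per Mb within 50 kb. The ratio, beyond over within 50 kb, was 1.19 on X (95% counting interval 0.983 to 1.44), so no difference was detectable there, against 0.277 (0.271 to 0.282) over the autosomes. Another PHF6 peak was within 10 kb for 11.3% of these X peaks, against 39.5% of distal low peaks on the autosomes. Chromosome Y held 18 PHF6 peaks, of which 15 met the same criteria.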
